A study of Rattus norvegicus with 6 samples.

Results

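The miRNAs numbered 1000 up are the rat miRNAs whose registered number is 1000 or higher. They were taken by name from the array, without any measured value, and number 118 of the 719 rat miRNAs on it, with 243 of its 1730 probes. Names with a probe position inside the miRNA cluster window of chromosome 6 on the rn4 build were to be left out, and none was. Of the 118 miRNAs, 115 have no rn4 position in the array files, so the position could not act on them; 12 lie, on the later build GRCr8, between the outermost miRNAs of that window, and none of these 12 was detected.

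RNA came from RSkMC, rat primary skeletal muscle cells that were grown out of the limb muscle of newborn animals and bought frozen from a cell collection. All cells were switched to medium with 2% horse serum, which induces muscle cells to differentiate, and were taken on day 11. The control group (n = 3 samples) was untreated, and the IL-8 group (n = 3 samples) had interleukin-8, a chemokine made as a recombinant protein in bacteria, at 1 ng/ml through the 11 days. No allele, transgene or animal age beyond the neonatal stage is given, and the labels are silent on whether samples were separate cultures, and p-values therefore measure only the spread between samples, which may be technical. The control arrays shared 1 slide and the IL-8 arrays a second slide, and the effect of slide and of treatment cannot be told apart.

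Each sample was hybridised to 1 Agilent array with 1 dye. Array brightness moved with the groups: the 75th percentile signal was 440 to 497 on the control arrays and 540 to 569 on the IL-8 arrays, and 154 to 164 against 168 to 180 of all rat miRNAs were detected. Of the fixed markers of skeletal muscle (miR-1, miR-133, miR-206, miR-208 and miR-499), 0 of 14 were well above background on any array, whereas 8 of 10 markers of fibroblasts and smooth muscle, 2 of 10 neural markers, 0 of 8 of blood, 0 of 3 of endothelium and 0 of 12 of epithelium were. None of these markers was called between the groups. How far the brightness of the arrays bears on the differences given here was not tested.

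A miRNA is a short RNA cut from a hairpin transcript. Its seed, bases 2 to 8 from the 5′ end, pairs with messenger RNAs that are then silenced. Names ending in -5p and -3p mark the left and right arm of a hairpin. Numbers are handed out in order of registration, so the highest numbers belong to miRNAs that entered the registry late, many of them from deep sequencing, where some were seen in few tissues or with few reads. The muscle miRNAs of the textbooks all carry low numbers.

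Of the 118, 10 were detected. Their mature sequences from RefSeq (build GRCr8) are shown because every value of the IL-8 comparison rests on them; capitals mark the seed.
miR-1224: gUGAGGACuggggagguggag
miR-1839-3p: aGACCUACuuaucuaccaacag
miR-1839-5p: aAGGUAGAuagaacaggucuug
miR-1949: uAUACCAGgaugucagcauaguu
miR-3068-3p: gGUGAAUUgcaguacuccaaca
miR-3473: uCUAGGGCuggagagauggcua
miR-3584-5p: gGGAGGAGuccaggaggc
miR-3593-3p: cUUCAACCuuaagggggccuca
miR-6216: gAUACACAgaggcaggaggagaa
miR-6328: aGGCCUGCucugagcccccgc
No 2 of these seeds are alike, and none is shared with any other rat miRNA of the RefSeq table. The 10 do not form a seed family.

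On GRCr8, miR-1224 lies at chr11:93811355-93811375 on the minus strand, within the span of Vwa5b2. It is known as a mirtron, a miRNA whose hairpin is a short spliced intron. The miR-1839 hairpin gives both of its arms on the plus strand, -5p at chr1:144893859-144893880 and -3p at chr1:144893898-144893919, and RefSeq files it under Scarna15, a small Cajal body RNA, a class that guides chemical modification of other RNAs. miR-3068-3p lies at chr6:112811880-112811901 on the minus strand under Snora58, a small nucleolar RNA, within the span of Alkbh1. Thus 3 of the 10 sequences come from loci that RefSeq names after another class of small RNA, and what the probes read there, a miRNA or a piece of the longer RNA, was not tested.

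The other detected miRNAs lie apart from each other. miR-1949 is at chr18:27429753-27429775 on the plus strand within Matr3, the gene of a nuclear matrix protein. miR-3473 is at chr13:42051730-42051751 on the plus strand within Zranb3, the gene of a DNA repair enzyme. miR-3584-5p is at chr1:256727582-256727599 on the minus strand within the spans of Itprip and LOC120100050. These 3 sit inside longer genes on 3 chromosomes. miR-6328 is at chr20:2890159-2890179 on the plus strand within Ppp1r18. miR-3593-3p, at chr6:78987770-78987791, and miR-6216, at chr3:65165595-65165617, are both on the minus strand and outside any other gene of the table. Exons and introns, and the strand of each surrounding gene, were not analysed here.

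Most miRNAs numbered 1000 up were not detected in these cells. Detection means that over 50% of a probe's spots carried the scanner software's mark for a signal well above background, and a miRNA was detected where any of its probes was. By that measure 10 of 118 (8.47%) were detected on at least 1 array, 8 of them on all 6, and 108 on none. Among the other 601 rat miRNAs 172 (28.6%) were detected. The share was lower the higher the number in the name, from 7 of 15 let-7 miRNAs (46.7%) through 106 of 310 numbered under 300 (34.2%), 46 of 166 numbered from 300 to under 500 (27.7%) and 13 of 110 numbered from 500 to under 1000 (11.8%). These shares are descriptions with no test, since miRNAs on 1 array are not replicates.

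Among the late miRNAs themselves the share was not even. Of the 16 numbered 1188 to 1949, 4 were detected (25%), and of the 13 numbered 2985 to 3473, 2 were (15.4%). The large block of 66 numbered 3541 to 3596 gave 2 (3.03%), and the 23 numbered 6215 to 6334 gave 2 (8.7%). The share was lowest in the block that holds most of the late miRNAs.

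**Figure D1:**
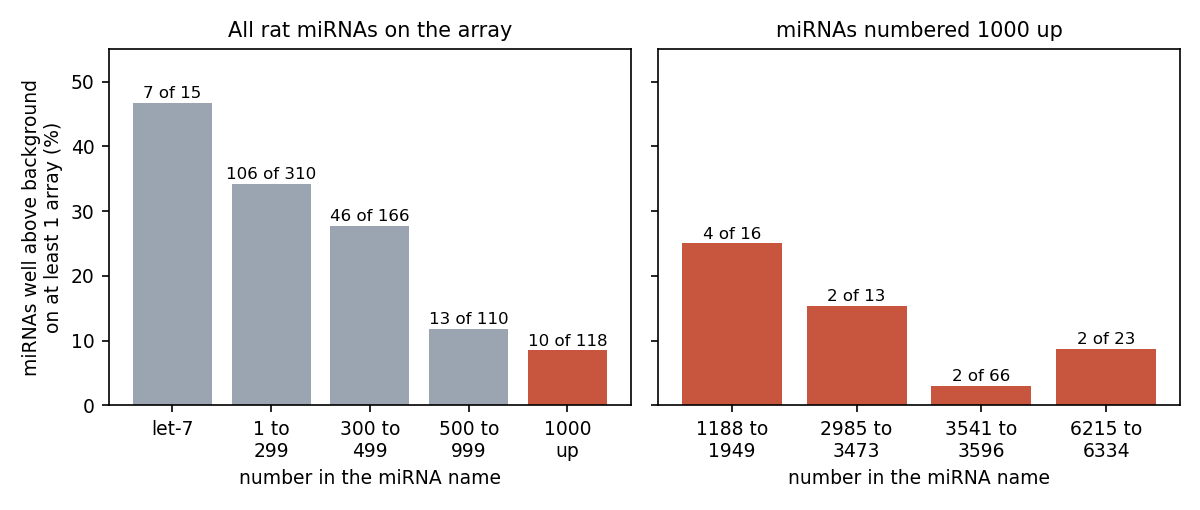
Share (%) of rat miRNAs well above background on at least 1 of 6 arrays, by the number in the name, for all miRNAs of the array (left) and within those numbered 1000 up (right). Bars start at 0 and carry the counts; the miRNAs numbered 1000 up reach 8.47%, and the block 3541 to 3596 reaches 3.03%.

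The 108 undetected miRNAs were read by 221 probes, and their background-subtracted signals lay between -12.7 and 11.6 with a median of -4.18 over 1326 values. Against the 95th percentile of negative control spots, which was 7.72 to 11.1 on the 6 arrays, 8 of the 1326 values were higher, and they came from 2 miRNAs. miR-3573-3p passed it in 5 of 12 values, with a highest signal of 11.6, and miR-1843a-5p in 3 of 12, with a highest signal of 10.3. No undetected miRNA had a probe above that percentile on all 6 arrays. The next in order of their highest signal were miR-3085 with 6.41, miR-2985 with 5.62 and miR-3068-5p with 4.58, all within the range of the control spots. For these miRNAs the arrays give no level and no change, only that they were not well above background.

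The number detected per array was 8, 9 and 8 in the control samples and 10, 9 and 9 in the IL-8 samples. The groups met at 9 and their means, 8.33 and 9.33, differed by 1 (exact two-sided permutation test, p = 0.3, where 3 against 3 arrays cannot go below 0.1). Both changing miRNAs were near the limit: the longest probe of miR-3068-3p was well above background on 1 of 3 control arrays and 3 of 3 IL-8 arrays, and that of miR-6328 on 1 IL-8 array and no control array. The lowest signal that counted as well above background was 16 to 17.1 on the control arrays and 12.3 to 15.6 on the IL-8 arrays. When a probe was instead required to pass the 95th percentile of negative control spots, the means were 11 and 11, a difference of 0. When all spots of a probe had to be well above background, each control array had 8 and each IL-8 array 9, with no overlap (exact two-sided permutation test, p = 0.1, the smallest it can give).

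Many late miRNAs were named from the strand opposite a long-known miRNA, and none of these was detected. On GRCr8, 26 hairpins of miRNAs numbered 1000 up overlap, on the other strand, the hairpin of another miRNA of the array. They give 28 mature miRNAs with 61 probes, and none of the 366 values passed the negative control percentile; the highest was 3.11, from miR-3592. Of the 26 opposite hairpins, 18 had an arm that was detected, and 8 had none, among them those of miR-1, miR-208a, miR-122, miR-200a, miR-200c and miR-183. The detected arms include let-7a-5p, which a hairpin on chromosome 17 also gives. A detected arm thus need not come from the opposite hairpin itself. None of the 10 detected late miRNAs has such an opposite hairpin; they are 10 of the 80 with a RefSeq hairpin and no miRNA of the array on the other strand.

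Of the late mature miRNAs, 13 overlap the detected arm itself, so that 18 to 22 bases of the 2 RNAs are perfect complements. Here 4 pairs are shown because the members of a pair can be told apart only by strand; capitals mark the complementary bases.
miR-3596a: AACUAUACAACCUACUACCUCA
let-7a-5p: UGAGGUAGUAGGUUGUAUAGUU
miR-3574: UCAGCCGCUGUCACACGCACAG
miR-210-3p: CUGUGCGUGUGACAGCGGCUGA
miR-3556a: CGAUUUCAGAUGGUGCUA
miR-29a-3p: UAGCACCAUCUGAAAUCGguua
miR-3065-5p: UCAACAAAAUCACUGAUGCU
miR-338-3p: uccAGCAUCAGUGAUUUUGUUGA
The miR-3596a and let-7a-5p pair lies at chr8:50805219-50805240, the late miRNA on the minus strand, and is complementary over 22 bases. let-7a-5p belongs to the let-7 family, which restrains growth genes and is abundant in differentiated cells. Its longest probe gave signals of 2980 to 4000 over the 6 arrays, while that of miR-3596a gave -2.82 to 0.312.

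The other pairs read alike. The miR-3556a probe gave -4.9 to -1.89, where miR-29a-3p, a miRNA known for silencing collagen genes, gave 1390 to 2040. The 2 lie at chr4:60617972-60617989 and chr4:60617968-60617989, the late one on the plus strand. The miR-3574 probe gave -10.2 to -5.59 and that of miR-210-3p, a miRNA known for its rise in hypoxia, 18.2 to 24.2, both at chr1:205755946-205755967, the late one on the plus strand. The miR-3065-5p probe gave -7.51 to -3.1 and that of miR-338-3p 17.7 to 36.6. These 2 occupy chr10:105796345-105796364 on the plus strand and chr10:105796345-105796367 on the minus strand. In each of the 4 pairs only the sequence of the miRNA with the low number gave a signal. That of let-7a-5p cannot be placed at the locus on chr8, since another hairpin also gives this sequence. Over all 13, the late miRNAs' longest probes stayed between -10.2 and 2.05 and those of the opposite arms between 17.7 and 4000.

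Of the arms on the opposite strand, 19 were tested for IL-8 in the same limma fit and 2 passed, beside 10 of all 167 tested miRNAs (5.99%). With so few arms this count is not read as a result about them. miR-210-3p, which rests on 1 dim probe, was lower with IL-8 by a log2 difference of -0.50 (adjusted p = 0.00229). miR-338-3p was higher by 0.62 (adjusted p = 0.0371). Its longest probe was dim too, at 17.7 to 36.6, where the lowest signal well above background was 16 to 17.1 on the control arrays. For their late counterparts, miR-3574 and the 2 arms of miR-3065, no change could be read, since no probe was above background.

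Each detected late miRNA was read by 2 or 3 nested probes, which pair with the 3′ part of the RNA and differ by the last base at the probe's 3′ end. The probes of miR-6216, miR-1224 and miR-3584-5p are shown because they span steep, intermediate and flat pairs; the capital marks the added base.
miR-6216, 14 bases: ttctcctcctgcct
miR-6216, 15 bases: ttctcctcctgcctC
miR-1224, 10 bases: ctccacctcc
miR-1224, 11 bases: ctccacctccC
miR-3584-5p, 13 bases: gcctcctggactc
miR-3584-5p, 14 bases: gcctcctggactcC
The 15-base probe of miR-6216 pairs with bases 9 to 23 of the RNA and the 11-base probe of miR-1224 with bases 11 to 21, so neither touches the seed. Over the 10 miRNAs the probes paired with 0 to 5 seed bases. No other mature rat miRNA of the table holds the target of any of these probes.

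The added base changed the signal little for some miRNAs and more for others. For miR-3584-5p the ratio of the longer to the shorter probe was 0.968 to 1.19 over the 6 arrays and for miR-3593-3p it was 0.951 to 1.07. Both probes of these 2 read the same. For miR-1949 the ratio was 2.03 to 2.41, for miR-1224 it was 2.42 to 2.89 and for miR-3473 it was 5.34 to 6.41. For miR-6216 no ratio is given, because the 14-base probe, at 3.61 to 10.4, was not well above background on any array; the 15-base probe gave 73.4 to 100. The absolute signal thus depended on the probe, and the level of 1 late miRNA cannot be set against that of another.

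In 5 of the 10 detected late miRNAs (50%) at least 1 probe was never well above background: miR-1839-3p, miR-1839-5p, miR-3068-3p, miR-6216 and miR-6328. Among the other detected miRNAs with more than 1 probe this held for 40 of 171 (23.4%). For miR-1839-5p the 17-base probe gave 3.34 to 7.05, the 18-base probe 9.33 to 13.7 and the 19-base probe 22.4 to 31.1. The 18-base probe of miR-1839-3p gave -0.61 to 2.77 where the 19-base probe gave 23.3 to 30.5. For both arms of this hairpin only the longest probe was well above background.

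Both probes were well above background on all 6 arrays for 5 late miRNAs, miR-1224, miR-1949, miR-3473, miR-3584-5p and miR-3593-3p. In all 5 the 2 probes gave the same direction of the IL-8 difference after scaling. The other miRNAs were compared on scaled values over probes detected on each of the 3 arrays of either group, a looser rule, and 102 did and 24 did not. By that rule the late miRNAs compared are the same 5. The probes of a miRNA share the RNA and the array, so this is agreement of readings and not a replicate of the condition. Before scaling the probes of miR-3473 disagreed: the mean signal difference was 1.11 for the shorter and -7.31 for the longer. Both probes of miR-3593-3p were then higher with IL-8, by 1.68 and 2.24. Both probes of miR-1224 were lower before scaling too, by mean differences of -13.2 (shorter) and -32.9 (longer). For miR-3584-5p these were -6.18 and -4.6, with control 1 high on both probes. For miR-1949 the longer probe gave -3.61, while the shorter, at -0.072, showed almost no difference.

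**Figure D2:**
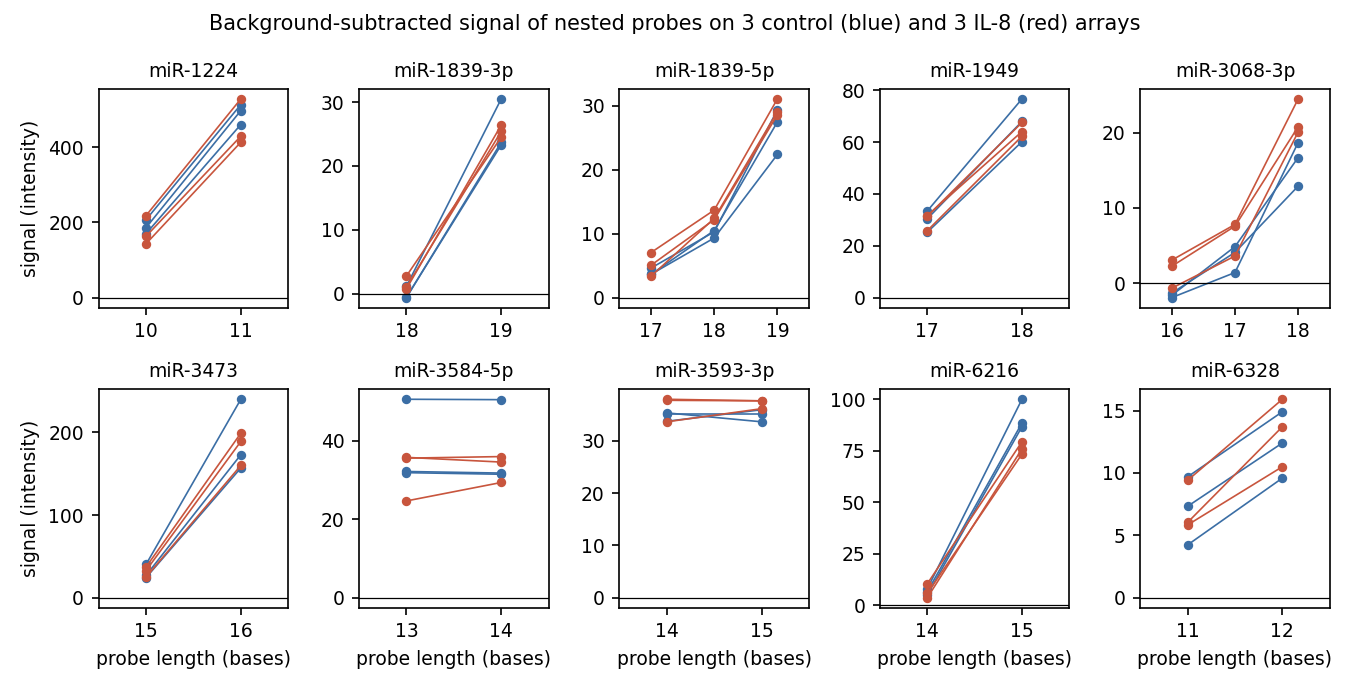
Background-subtracted signal (intensity, linear scale, separate axis per panel) against probe length in bases for the 10 detected miRNAs numbered 1000 up; each line joins the probes of 1 array, blue for the 3 control and red for the 3 IL-8 arrays. Lines are nearly flat for miR-3584-5p and miR-3593-3p and steep for miR-6216, whose 14-base probe stays at or below 10.4 while its 15-base probe gives 73.4 to 100.

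IL-8 was compared with control for the 9 late miRNAs with a probe that was detected on each of the 3 arrays of either group. Values are log2 signals relative to the array's 75th percentile, and changes are relative to the other miRNAs. Of the 9, 1 passed the test (limma, adjusted p under 0.05): miR-6216, which was lower with IL-8. Over all 167 tested miRNAs 10 were called (5.99%), 5 lower (2.99%) and 5 higher (2.99%). With 9 tested, a single call is close to that background share. With 1 array left out the filter was applied again, and 167 to 169 miRNAs were tested. The count over these was 4 without control 2, 27 without control 3, 3 without IL-8 1, and 1 without IL-8 2 or IL-8 3.

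The direction of the late miRNAs was mostly downward in value: 8 of 9 had a lower mean with IL-8 and 1 a higher one, with a median log2 difference of -0.248. Over all 167 the median was 0.0164, and 94 (56.3%) were higher. For 5 of the 9 the values of the groups were fully separate, all lower with IL-8, where 50 of 167 (29.9%) did not overlap in either direction and 23 (13.8%) with IL-8 lower. Unadjusted p-values were under 0.05 for 5 of 9, beside 41 of 167 (24.6%). Without any scaling the median of all tested miRNAs moved to 0.235, and 5 of the 9 were lower and 4 higher. Of the 9, 8 were below that median. Scaling shifts all values of an array above the floor alike, so leaving it out could hardly change that count.

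miR-6216 is among the latest registered rat miRNAs of the array. Its 15-base probe gave background-subtracted signals of 100, 88.5 and 86.7 on the control arrays and 79.4, 73.4 and 75.9 on the IL-8 arrays, so each IL-8 array was dimmer than every control array before scaling too; without scaling the log2 difference was -0.27 and did not pass (adjusted p = 0.0514). After scaling the log2 values were -2.14, -2.43 and -2.52 in control and -2.84, -2.90 and -2.83 in IL-8. The control samples spread more than the IL-8 samples, with control 1 highest, and the groups did not overlap. The means were -2.36 ± 0.20 (SD, n = 3) and -2.86 ± 0.04 (SD, n = 3). The log2 difference was -0.50 (SE 0.098), a level of 0.708 times control (95% confidence interval 0.603 to 0.830), with an adjusted p of 0.0309 over all 167. The adjusted p was 0.0532 without control 2, 0.132 without IL-8 1, 0.181 without IL-8 2 and 0.172 without IL-8 3, while the log2 difference over all 6 leave-outs stayed between -0.58 and -0.39. The value rests on 1 probe. Over 24 alternatives the log2 difference ranged from -0.60 to -0.25 and the adjusted p from 0.00031 to 0.414, with 12 calls. The -0.25 came with both probes averaged (adjusted p = 0.0525) and without a filter (adjusted p = 0.414). There the 14-base probe counted at the floor on every array, with a log2 difference of 0, so -0.25 holds no reading from it. The other alternatives gave -0.60 to -0.27. Before scaling the mean signal difference of the 14-base probe was 0.115, at signals not well above background on any array.

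**Figure D3:**
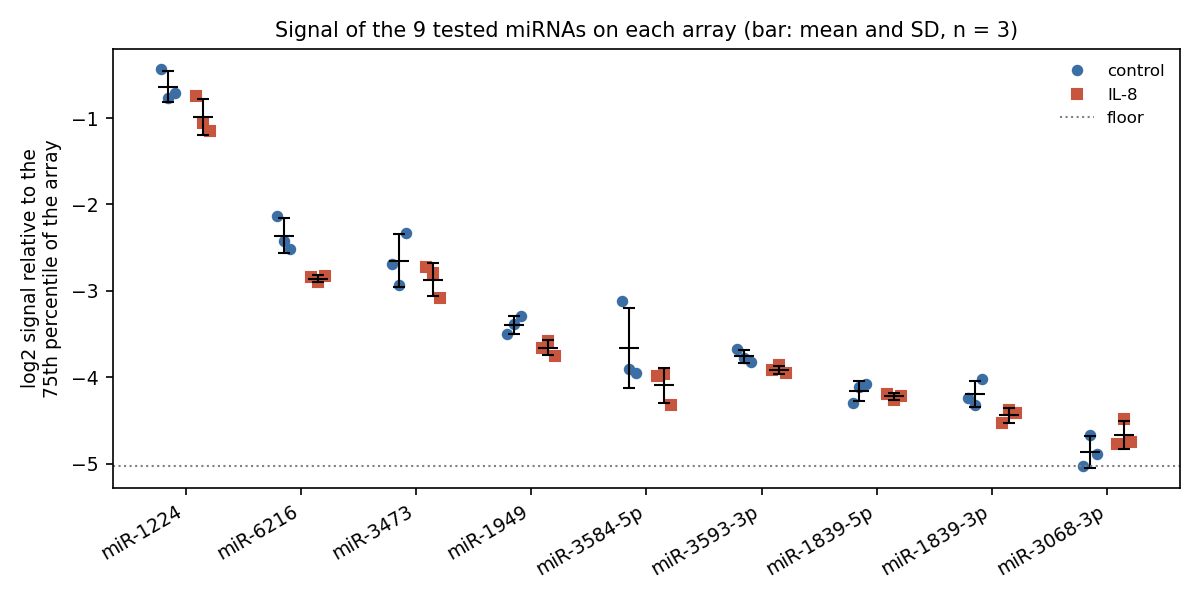
Log2 signal relative to the 75th percentile of the array for the 9 tested miRNAs numbered 1000 up, 3 control (blue circles) and 3 IL-8 arrays (red squares), with mean and SD (n = 3); the dotted line is the floor at -5.03. The 3 IL-8 values of miR-6216 lie between -2.90 and -2.83, below all 3 control values; levels of different miRNAs are not comparable, since probes differ.

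miR-1949 did not pass the test (adjusted p = 0.0772). Its log2 values were -3.50, -3.39 and -3.30 in control and -3.66, -3.58 and -3.75 in IL-8. The groups did not overlap. The means were -3.39 ± 0.10 and -3.66 ± 0.09 (SD, n = 3 each), a log2 difference of -0.27 (SE 0.073). Its 18-base probe gave 60.2, 68 and 76.7 in control and 64.1, 67.6 and 62.3 in IL-8 before scaling, where the groups overlapped, and without scaling the log2 difference was -0.04. Its adjusted p ranged from 0.00288 to 0.998 over 24 alternatives, and 7 of them called it.

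The 2 arms of the miR-1839 hairpin were read separately. miR-1839-3p had log2 values of -4.24, -4.32 and -4.03 in control and -4.54, -4.38 and -4.41 in IL-8. These groups did not overlap, and the log2 difference was -0.25 (SE 0.087, adjusted p = 0.153). Before scaling its 19-base probe gave 23.3, 23.7 and 30.5 in control and 24.5, 26.4 and 25.4 in IL-8, which overlap. The log2 difference was -0.01 without scaling, -0.06 with spike-in scaling and -0.16 without control 3. miR-1839-5p had -4.30, -4.11 and -4.08 in control and -4.19, -4.27 and -4.21 in IL-8. Its groups overlapped, and the log2 difference was -0.06 (SE 0.070, adjusted p = 0.676). Neither arm passed, and the difference between the arms was not tested.

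miR-1224, the mirtron, had log2 values of -0.43, -0.77 and -0.71 in control and -0.75, -1.05 and -1.15 in IL-8. The highest IL-8 value lay just above the lowest control value. The means were -0.64 ± 0.18 and -0.98 ± 0.21 (SD, n = 3 each), and the log2 difference was -0.35 (SE 0.127, adjusted p = 0.153). Its 11-base probe gave 460 to 513 in control and 413 to 528 in IL-8 before scaling, so the groups overlapped there too, and without scaling the log2 difference was -0.12. The target of its 10-base probe is short enough to occur, on either strand, in 0.639% of 33469 rat promoter windows of 300 bases, a description of how common these letters are; signal from other RNAs was not tested. It also occurs in the hairpin of miR-632.

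miR-3584-5p had log2 values of -3.12, -3.91 and -3.96 in control and -3.99, -3.96 and -4.33 in IL-8. The groups did not overlap, but control 2 and control 3 lay close to the nearest IL-8 values and control 1 stood apart. The log2 difference was -0.43 (SE 0.224, adjusted p = 0.285). Both probes showed control 1 high, with 50.6 and 50.5 against 31.5 to 32.2 on control 2 and control 3. Without control 1 the log2 difference was -0.16.

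miR-3593-3p had log2 values of -3.68, -3.77 and -3.82 in control and -3.92, -3.86 and -3.96 in IL-8. Its groups did not overlap, with a log2 difference of -0.15 (SE 0.058, adjusted p = 0.158). Before scaling the groups overlapped, at 33.7 to 35.3 in control and 33.6 to 37.9 in IL-8 for the 14-base probe. miR-3473 had -2.68, -2.94 and -2.33 in control and -2.72, -2.80 and -3.09 in IL-8. These groups overlapped, and the log2 difference was -0.22 (SE 0.161, adjusted p = 0.488). It was -0.06 without control 3, -0.11 without IL-8 3 and -0.36 without control 2. With up to 1 mismatch, the target of its 15-base probe occurs in 0.365% of the promoter windows. For the 15-base probes of miR-6216 and miR-3593-3p this share is 0.0538% and 0.00299%. Signal of the miR-3473 probes from other RNAs was not tested.

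miR-3068-3p was the 1 late miRNA with a higher mean in IL-8. Its log2 values were -5.03, -4.67 and -4.90 in control, the first of them at the floor, and -4.77, -4.49 and -4.75 in IL-8. The groups overlapped, and the log2 difference was 0.19 (SE 0.114, adjusted p = 0.368). It was 0.33 without control 2, 0.11 without control 1 and 0.07 without IL-8 2. This miRNA entered the test only through the IL-8 arrays, the group where it is higher, so its test is not independent of that entry, and it has no value when detection on all 6 arrays is required. Its 18-base probe gave 12.9, 18.7 and 16.7 in control and 20.8, 24.5 and 20.1 in IL-8 before scaling, and without scaling its log2 difference was 0.35 (adjusted p = 0.0322, with the same limit on its entry). With normexp background correction it turned to -0.07. miR-6328, detected on IL-8 1 alone, gave 12.4, 14.9 and 9.59 in control and 15.9, 13.7 and 10.5 in IL-8 for its 12-base probe, and was not tested.

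**Figure D4:**
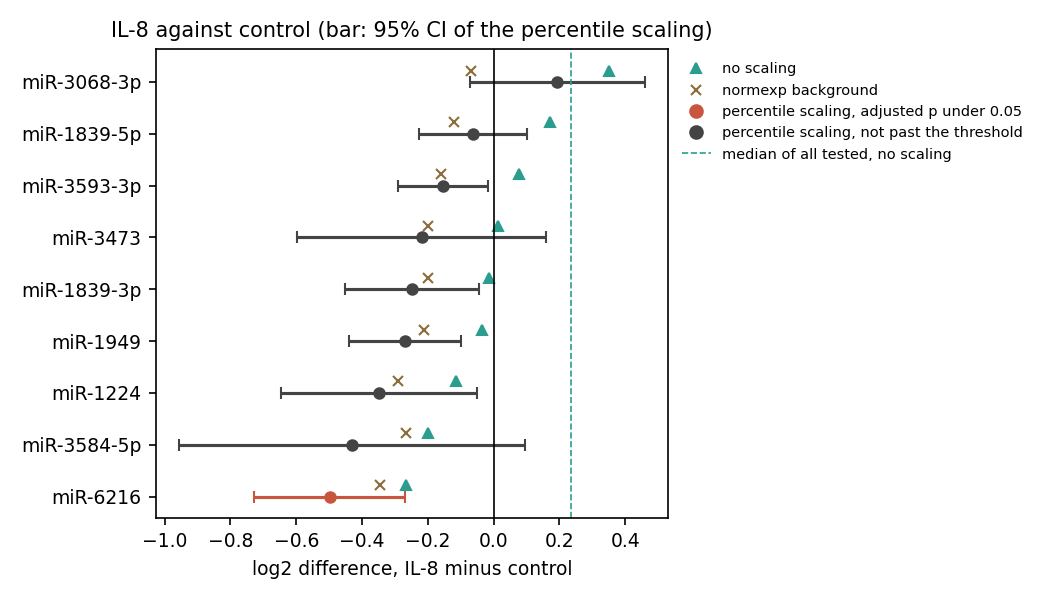
Log2 difference between IL-8 and control for the 9 tested miRNAs numbered 1000 up: circles with 95% confidence intervals for the percentile scaling, triangles without scaling, crosses with normexp background correction. With percentile scaling 8 of 9 lie below 0 and miR-6216 passes the test (red); without scaling 5 of 9 do, and the dashed line marks the median of all tested miRNAs, 0.235, with 8 of 9 below it.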

How the data were processed

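Values are linear intensities of array spots as deposited. Per the file headers, Agilent Feature Extraction 10.10.1.1 subtracted background and detrended them spatially, with no scaling between arrays. In the deposited series-wide set of intensities all 15095 values of each array matched the software's total signal per probe to a relative tolerance of 1e-04. Its column medians were -0.529, -1.35 and -1.17 (control) and 0.307, -0.802 and -1.18 (IL-8). No rat miRNA spot was saturated. Dim probes can fall below 0 after subtraction, which makes their ratios unreliable.

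Spots of a probe were averaged without outlier spots, divided by the 75th percentile of the array (taken from 264 probes detected in all 6 samples), floored at a log2 value of -5.03 and put on the log2 scale. A miRNA was tested when a probe was detected on each of the 3 arrays of either group, as the mean of such probes; 167 miRNAs, 9 of them numbered 1000 up, were tested in R 4.3.3 (version 1.17.8 of the data.table package) with limma 3.58.1, by lmFit and eBayes, with Benjamini-Hochberg adjustment over all 167. The fit was tested on simulated data. The number of arrays, 3 a group, limits the precision.

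Groups follow the sample titles; by the growth protocol every sample had IL-8, but the agent labels and the design also give 3 as untreated. RNA integrity numbers were 9.5 to 10.0 and 100 ng of RNA were labelled, per the labels. RefSeq (GRCr8) held a mature sequence for 108 of the 118 miRNAs; the other 10 have no sequence here. The array files place probes on rn4, and no position was converted. All tested miRNAs numbered 1000 up are named with values, detected ones that were not tested with their arrays, and the rest by count and range; others were named after their values were seen. The members, lists and tests were chosen with earlier results of these data known, and the antisense and neighbour descriptions were added after the files were seen.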

Additional observations from a re-analysis of the deposited data

How the results depend on the processing

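Counts of called miRNAs depended on the processing. Over all tested miRNAs the count of 10 became 0 when every rat probe entered the 75th percentile, 17 with quantile normalization, 51 without scaling (50 higher, 1 lower), 47 with spike-in scaling (44 higher, 3 lower), 24 with normexp (1 higher, 23 lower), 3 when 1 detected array was enough, 1 without a filter and 28 with array weights, a fit that stopped before convergence. Leaving out 1 array gave 1 to 27. Among the miRNAs numbered 1000 up the count of 1 became 0 with that percentile, with all probes averaged, with either looser filter and with the highest floor. It was 2 with quantile normalization (miR-1839-3p and miR-1949, not miR-6216), 2 including miR-6216 with spike-ins, the brightest probe or array weights, 3 with median scaling and 7 with normexp, all 7 lower. Leaving out 1 array gave 0 to 2. With all spots required above background it was 1, miR-1949 and not miR-6216. Without scaling it was 1, miR-3068-3p and not miR-6216; miR-3068-3p, also 1 of the 2 with spike-ins, entered the test only through the IL-8 arrays, where it is higher. Differences of opposite sign were 0.171 (miR-1839-5p), 0.0147 (miR-3473) and 0.0782 (miR-3593-3p) without scaling, 0.127 (miR-1839-5p) and 0.0348 (miR-3593-3p) with spike-ins, and -0.0692 (miR-3068-3p) with normexp; none of these 6 passed. The difference in detected miRNAs per array was 0 by the negative control percentile. Of 215 single values, 180 kept direction and call, 12 lost the call and 17 gained it. All 12 losses were among the 24 alternatives of miR-6216, the only late miRNA with a call to lose. The cause was not tested. With all probes averaged or without a filter, the value of miR-6216 included its shorter probe at the floor, which gave no reading. Samples with the same replicate number deviated from their group means with r of 0.288, 0.33 and 0.0857, and those with different numbers with r of -0.581 to 0.326. Whether samples of the same number share a culture or batch cannot be told from so few values. With the replicate block the count was 2, miR-1224 and miR-6216 (limma, adjusted p = 0.0454 each). Signal over background limits all values of the 108 undetected miRNAs and of miR-3068-3p.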

Other observations

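Of the miRNAs numbered 1000 up, 4 share their seed with a miRNA of a lower number on the array, and none of the 4 was detected. They are miR-1193-3p (with miR-370-5p), miR-3065-5p (with miR-7a-1-3p), miR-3573-5p (with miR-423-5p) and miR-3596d (with the -3p arms of let-7a-1, let-7b, let-7f-1 and miR-98).

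Of the hairpins that give late miRNAs, 28 lie within 10000 bases of another miRNA hairpin of the array on GRCr8 without overlapping it. None of the 28 had a detected arm, although 19 had a detected neighbour, 4 of them on the same strand. Of all 118 late miRNAs 10 (8.47%) were detected. Most of the 28 hairpins also lie opposite a miRNA of the array and were counted above. Of the 4, all but that of miR-6326 lie in the chromosome 6 cluster named at the start. These counts are therefore not a separate observation. miR-6326 has as its nearest neighbour miR-22, a miRNA abundant in many tissues, on the same strand of chromosome 10; both arms of miR-22 were detected and miR-6326 was not.

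The longest probes of the 10 detected late miRNAs had a median GC content of 58.1% (38.9% to 83.3%), beside 52.9% (33.3% to 83.3%) for the 108 undetected ones. Among the other miRNAs the order was the opposite, with 48.8% for detected and 50% for undetected ones. The median length of the longest probe was 15.5 bases for detected and 16 for undetected late miRNAs, and 18 and 17 among the others. Both arms of miR-1839 were detected. For miR-3068, miR-3584 and miR-3593, which also have both arms on the array, 1 arm was not: the highest signal of miR-3068-5p was 4.58, of miR-3584-3p -2.63 and of miR-3593-5p -3.23.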
